A study of Capra hircus with 20 samples.

Results

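GABA-A receptors are chloride channels that open when GABA, the main inhibitory transmitter of the brain, binds to them. Each receptor is a ring of subunits, most often built from alpha and beta subunits together with a gamma or a delta subunit, and the subunit mix sets where the receptor sits on the neuron, how long its channel conducts and which drugs and neurosteroids act on it. Receptors with a gamma subunit are found mainly at synapses, while receptors with the delta subunit lie outside synapses and carry a tonic current. In the hypothalamus GABA acts on the neurons that release GnRH and on many other peptide neurons, and its receptors are known to change their make-up as the brain matures.

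A total of 7 subunit genes are described here, taken from the 21071 genes of the deposited table by their symbols, which were matched to NCBI gene identifiers in the goat ARS1.2 annotation. They are the alpha subunit genes GABRA2, GABRA4 and GABRA5, the beta subunit genes GABRB1 and GABRB2, the gamma 1 subunit gene GABRG1 and the delta subunit gene GABRD. All 7 were found and all 7 passed the filter on low values. The 20 libraries came from the hypothalamus of 20 female Jining grey goats kept under the same feeding conditions, with 5 goats at an age of 1 day (D1), 5 at 60 days (M2), 5 at 120 days (M4) and 5 at 180 days (M6). No goat was treated. Each goat gave a single strand-specific library depleted of rRNA. Levels are in FPKM, in which the fragments of a gene are divided by its exon length and by the depth of its library. Comparing subunits with each other, as in the order of levels and the class shares, assumes that the annotated exons of each gene are complete. This was not checked. Reads per gene are not given with the FPKM values, so no counting error was calculated.

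The labelled tissue was checked first against marker genes, because it bears on every level below. The neuropeptide genes OXT, AVP, HCRT and PMCH, which are expressed by neurons of the hypothalamus, were unevenly present. At least 2 of these 4 genes reached 10 FPKM in 5 libraries (D1 replicate 1, M4 replicate 4, M6 replicate 2, M6 replicate 4 and M6 replicate 5), and none of the 4 did in 13 libraries. NKX2-1, a transcription factor of the hypothalamus, was listed at 0 in 4 libraries and reached at most 3.17 FPKM. In 6 libraries the summed FPKM of 4 marker genes of another brain region was over 4 times its median of the 20 libraries. The striatum markers PPP1R1B, ADORA2A, DRD1 and DRD2 summed to 437 FPKM in D1 replicate 4, 117 in M2 replicate 4 and 179 in M6 replicate 2, against a median of 6.68. The cortex markers NEUROD6, TBR1 and EMX1, 3 of the 4 on the cortex list, summed to 32.5 FPKM in M4 replicate 1 against a median of 0.173. M2 replicate 1 was counted by the full cortex list, and these 3 genes summed to 0.325 FPKM there. By these 3 genes alone D1 replicate 1 (2.73 FPKM) and M2 replicates 2, 4 and 5 (1.46, 1.86 and 4.40 FPKM) would also exceed 4 times the median, and of these M2 replicate 4 is among the 6. The thalamus markers LHX9, RORA, PLEKHG1 and TCF7L2 summed to 198 FPKM in M4 replicate 2, against a median of 37.8. The 6 are called the libraries with regional markers below, and levels, correlations and the main differences are given with and without them. The markers of neurons (7 genes of 8 found in the table) summed to 84.5 FPKM in M6 replicate 3 and 238 in M2 replicate 1, and to between 600 and 2726 in the other 18 libraries. In bulk tissue fewer cells of a type and less RNA per cell cannot be told apart.

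By mean FPKM over the 20 libraries the order of the 7 genes was GABRB1 (104 ± 88.6, SD, n = 20), GABRB2 (53.5 ± 37.7), GABRA2 (39.3 ± 23.2), GABRG1 (37.4 ± 17.2), GABRA4 (32.5 ± 34.3), GABRA5 (11.95 ± 16.1) and GABRD (4.46 ± 8.38). Neighbours in this order were compared within libraries, with a two-sided permutation test of the log2 differences (100000 sign changes, n = 20) adjusted over the 6 pairs. GABRB1 lay above GABRB2 in 16 of 20 libraries (adjusted p = 0.0117). GABRA4 lay above GABRA5 in 19 of 20 (adjusted permutation p = 0.00012) and GABRA5 above GABRD in 17 of 20 (adjusted permutation p = 0.00021). The 3 steps in the middle of the order did not pass. GABRB2 lay above GABRA2 in 14 of 20 libraries (adjusted permutation p = 0.155) and GABRG1 above GABRA4 in 14 of 20 (adjusted permutation p = 0.0569). GABRA2 lay above GABRG1 in only 7 of 20 (adjusted permutation p = 0.744), so that within libraries the direction was opposite to that of the means. Without the libraries with regional markers the means (n = 14) were 83.0 FPKM for GABRB1, 42.3 for GABRB2, 38.4 for GABRG1, 28.9 for GABRA2, 18.5 for GABRA4, 3.88 for GABRA5 and 0.844 for GABRD, with GABRG1 above GABRA2. Among all 19 subunit genes in the table GABRB1 ranked first, and GABRD ranked 11th.

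**Figure D1:**
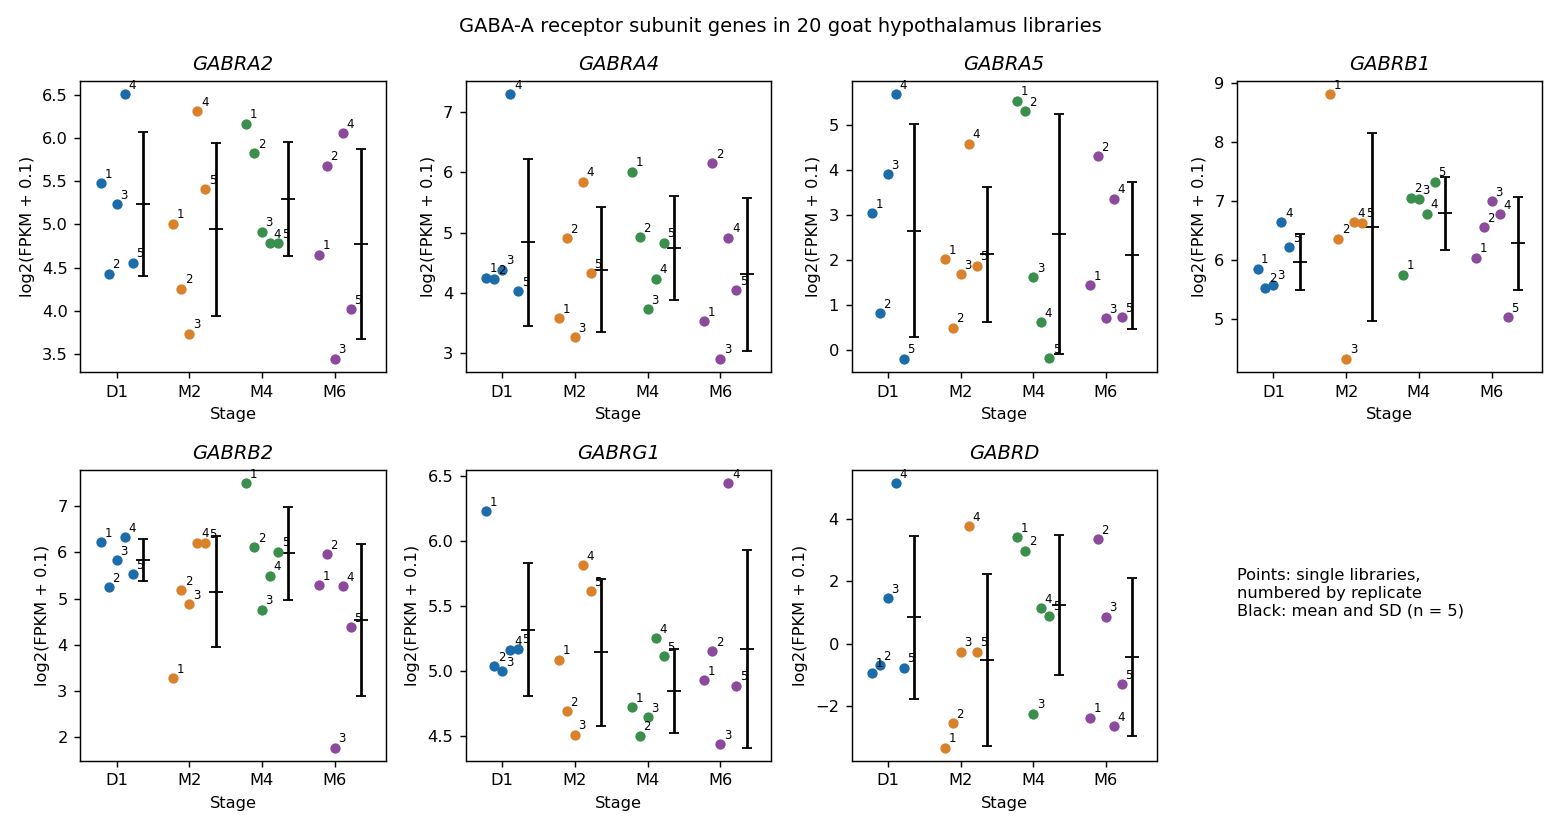
Levels of the 7 subunit genes in each library, as log2(FPKM + 0.1), by stage. Points are single libraries numbered by replicate, and the black bars are the mean and SD of 5 libraries. Replicate 4 of D1 stands above the rest of its stage for GABRA4 and GABRD, at 157 and 35.5 FPKM, and the 4 stages overlap for every gene.

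The delta subunit, which replaces a gamma subunit in receptors outside synapses, had the most uneven gene of the 7. GABRD stood at 0.428, 0.521, 2.64, 35.5 and 0.488 FPKM in D1 replicates 1 to 5. The M2 goats had 0, 0.0717, 0.739, 13.4 and 0.736 FPKM. The M4 goats had 10.5, 7.82, 0.112, 2.12 and 1.77 FPKM, and the M6 goats 0.0939, 10.1, 1.73, 0.0603 and 0.307 FPKM. Each stage thus had 1 or 2 libraries of over 7 FPKM, and the other libraries lay between 0 and 2.64 FPKM. The 5 highest libraries were D1 replicate 4, M2 replicate 4, M4 replicate 1, M6 replicate 2 and M4 replicate 2, all of them libraries with regional markers, and the sixth library had 2.64 FPKM. The remaining library with regional markers, M2 replicate 1, is the one in which GABRD was listed at 0. Over the 14 libraries without regional markers GABRD averaged 0.844 ± 0.856 FPKM (SD, n = 14) and its highest value was 2.64. The SD of log2(FPKM + 0.1) within stages was 2.53 for GABRD, and 1.49 without the libraries with regional markers. GABRD reaches a mean of at least 1 FPKM only through those libraries, so no rank among genes of that level is given.

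GABRA4, the alpha subunit that most often pairs with delta outside synapses and that does not bind classical benzodiazepines, followed the same libraries from a higher base. In the D1 goats its FPKM was 18.9, 18.6, 20.8, 157 and 16.2 in replicates 1 to 5, so 4 libraries lay close together and the fourth replicate far above them. The M2 goats had 11.8, 29.9, 9.51, 57.3 and 19.9 FPKM. Those of M4 had 64.2, 30.1, 13.2, 18.7 and 28.3 FPKM, and those of M6 11.4, 70.9, 7.38, 30.1 and 16.3. Its 5 highest libraries were the same 5 as those of GABRD, although the fifth (30.14 FPKM) and the sixth, M6 replicate 4 (30.10 FPKM), were almost equal. Without the libraries with regional markers its mean was 18.5 ± 7.14 FPKM (SD, n = 14) in place of 32.5, and its within-stage SD on the log2 scale 0.651 in place of 1.15.

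GABRA5, an alpha subunit known from receptors outside synapses in the hippocampus, ranged from 0.766 to 51.4 FPKM within D1 alone. Its D1 values were 8.09, 1.65, 14.9, 51.4 and 0.766 FPKM. At M2 replicate 4 had 23.9 FPKM and the other 4 libraries between 1.3 and 3.93. At M4 replicates 1 and 2 had 46.5 and 39.4 FPKM and the other 3 between 0.777 and 2.95. The high libraries of M2 and M4 carry regional markers, but M2 replicate 1, which also does, had 3.93 FPKM. At M6 replicate 2 had 19.6 FPKM, replicate 4 had 10.1, and the others lay between 1.52 and 2.60. The 5 highest libraries of GABRA5 were those of GABRD and GABRA4, and without the libraries with regional markers its mean was 3.88 ± 4.20 FPKM (SD, n = 14). The SD within stages over the 20 libraries, 2.11 on the log2 scale, was higher than in 99.2% of the tested genes with a mean of at least 1 FPKM. Without the libraries with regional markers the SD of GABRA5 was 1.355.

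GABRA2, the alpha subunit that is prominent in the developing brain and at the axon initial segment, varied less. Its 5 values were 44.4, 21.4, 37.5, 90.9 and 23.5 FPKM in the D1 goats and 32.1, 19.015, 13.2, 79.5 and 42.3 in the M2 goats. In the M4 goats they were 71.8, 56.6, 30.1, 27.4 and 27.4 FPKM, and in the M6 goats 25.0, 51.2, 10.8, 66.4 and 16.1. Every stage held a library of over 50 FPKM and a library of under 30. No library was without it. Of its 5 highest libraries 4 carried regional markers, and the other was M6 replicate 4, in which OXT and AVP are abundant and the myelin markers are low.

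The markers of other cells differed between these libraries too. The 6 markers of oligodendrocytes and myelin summed to 989 FPKM in D1 replicate 4, 445 in M4 replicate 1, 938 in M4 replicate 2 and 2507 in M2 replicate 4, against stage medians between 5691 and 13842. M6 replicate 2, also among the 5 highest libraries of GABRA4, GABRA5 and GABRD, had 5727 FPKM of these markers. Low myelin sums were also found in M6 replicate 4, with 654 FPKM, and in M2 replicate 1, with 2127 FPKM, where GABRA4 was at 11.8 FPKM and GABRD was listed at 0. The part of dissection, of neuron content or of myelin content in the levels of the subunit genes was not tested.

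**Figure D2:**
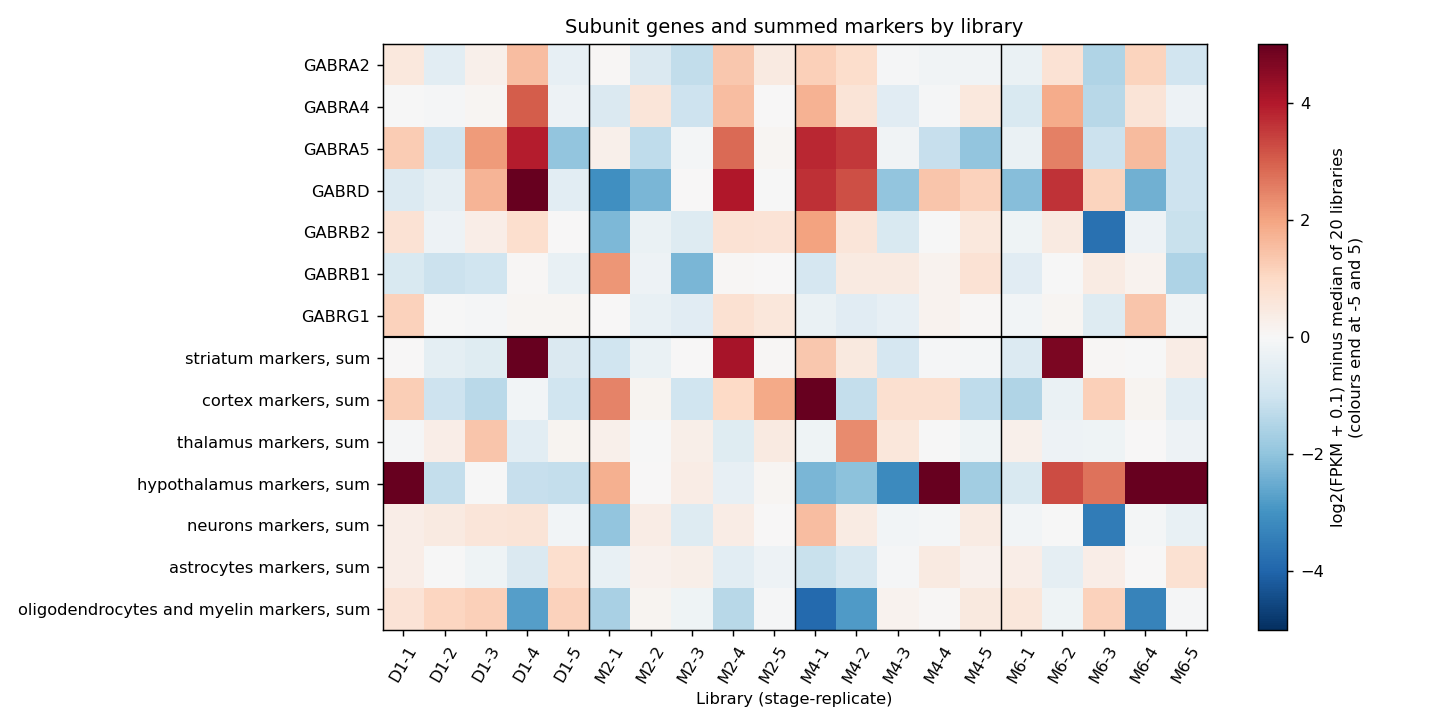
The 7 subunit genes (upper rows) and the summed FPKM of marker lists (lower rows) in each library, as log2(FPKM + 0.1) minus the median of the 20 libraries. GABRA4, GABRA5 and GABRD are high in D1-4, M2-4, M4-1, M4-2 and M6-2, where striatum, cortex or thalamus markers are high, and GABRB2 is low in M2-1 and M6-3, where neuron markers are low.

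The beta subunits line the GABA binding site together with the alpha subunits. Their genes differed in the 2 libraries with the lowest sums of neuron markers, M6 replicate 3 and M2 replicate 1. GABRB2, whose product is widespread in receptors of the adult brain, had 74.4, 37.8, 56.8, 80.6 and 45.9 FPKM at D1. The M2 values were 9.56, 36.2, 29.3, 74.2 and 73.8 FPKM. The M4 values were 182, 69.2, 26.9, 45.0 and 64.7 FPKM, and those of M6 39.1, 62.1, 3.29, 38.5 and 20.7. The lowest values thus belonged to M6 replicate 3 and M2 replicate 1, the libraries with the lowest sums of neuron markers, and the highest to M4 replicate 1, the library with the highest sum (2726 FPKM).

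GABRB1 had 57.6, 46.0, 47.7, 99.8 and 74.3 FPKM at D1. The M2 goats had 447, 81.9, 19.9, 99.8 and 99.1 FPKM. The M4 goats had 53.6, 133, 131, 110 and 160 FPKM, and the M6 goats 65.6, 94.0, 127, 109 and 32.6. The highest value, in M2 replicate 1, was over 4 times the next M2 value and came from a library in which GABRB2 was at 9.56 FPKM. In M6 replicate 3 GABRB1 stood at 127 FPKM beside 3.29 FPKM of GABRB2. The astrocyte markers (6 genes) summed to 1865 and 3077 FPKM in these 2 libraries, within the range of 1128 to 4306 of all 20. GFAP alone gave 1169 and 2470 FPKM of these sums. In M6 replicate 3 SLC1A2 (38.3 FPKM) and SLC1A3 (94.2 FPKM) had their lowest values of the 20 libraries. GFAP, AQP4, ALDH1L1 and GJA1 lay above their medians there. In M2 replicate 1 the sum of the microglia markers (4 genes) was the highest of the 20, at 2.11 times the median. The part of glial content in the levels of GABRB1 was not tested. GABRB1 was not high in every library with few neuron markers. Its 2 lowest values, 19.9 FPKM in M2 replicate 3 and 32.6 in M6 replicate 5, came with the next lowest neuron marker sums (600 and 740 FPKM). In M2 replicate 3 GABRB2, at 29.3 FPKM, lay above GABRB1. Without M2 replicate 1 the log2 fold change of GABRB1 in M2 vs. D1 was 0.026 in place of 0.59, that of M4 vs. M2 0.80 in place of 0.24 and that of M6 vs. M2 0.29 in place of -0.27, and none of these was called by limma.

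GABRG1, whose product gives receptors a low sensitivity to benzodiazepines, is also known from astrocytes. Over the 20 libraries GABRG1 was the least variable of the 7 genes, with a within-stage SD of 0.561 on the log2 scale. The median was 0.497 for the tested genes with a mean of at least 1 FPKM. Without the libraries with regional markers the SD was 0.650 for GABRG1, about that of GABRA4 (0.651). Its D1 values were 74.7, 32.7, 31.8, 35.6 and 35.9 FPKM. The M2 goats had 33.8, 25.7, 22.6, 56.0 and 48.7 FPKM and the M4 goats 26.3, 22.5, 24.9, 37.9 and 34.4. The values of M6 were 30.4, 35.4, 21.5, 87.0 and 29.4 FPKM. The top 2 libraries, M6 replicate 4 and D1 replicate 1, had at least 10 FPKM of 3 of the 4 neuropeptide genes, but M6 replicate 5, with all 4 at that level, had 29.4 FPKM of GABRG1. A single library with regional markers was among its 5 highest.

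The question of the design is whether levels differ between the stages from birth to sexual maturity. Log2(FPKM + 0.1) was compared between the 4 stages with limma for the 16771 genes that reached 0.1 FPKM in 5 or more libraries. A gene was called where its Benjamini-Hochberg adjusted p over all genes tested was under 0.05 and its log2 fold change was 1 or more in either direction. None of the 7 genes was called in any of the 6 comparisons. Calls were rare in all: 0.0537% of the genes tested in M4 vs. D1, 0.00596% for M6 vs. D1, and 0% for each of M2 vs. D1, M4 vs. M2, M6 vs. M2 and M6 vs. M4. In the latter 4 comparisons limma gave between 1030 and 2616 genes with an unadjusted p under 0.05. The absence of calls among the 7 genes is therefore not particular to them. Of the 42 values of a member in a comparison, 1 had an unadjusted p under 0.05 by limma, and the adjusted p ranged from 0.629 to 0.997. Over all genes tested, between 6.14% and 15.6% had an unadjusted p under 0.05 in a comparison.

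The smallest p of each gene belonged to these comparisons. GABRB2 in M6 vs. M4 had means of 32.8 and 77.6 FPKM, a log2 fold change of -1.45 (standard error 0.66, 95% interval -2.82 to -0.07) and an adjusted p of 0.71 by limma. Without M6 replicate 3, the library poorest in neuron markers, this log2 fold change was -0.75, and with the mean of the neuron markers as a covariate -0.28. GABRB1 in M4 vs. D1 had means of 117 and 65.1 FPKM and a log2 fold change of 0.82 (95% interval -0.33 to 1.98, adjusted p = 0.726 by limma). Without the 6 libraries with regional markers it was 1.25 (adjusted p = 0.444). GABRG1 in M4 vs. D1 had means of 29.2 and 42.1 FPKM and a log2 fold change of -0.47 (95% interval -1.17 to 0.22). For GABRD the comparison was M4 vs. M2, with 4.47 ± 4.46 FPKM (SD, n = 5) against 3.00 ± 5.85, and the log2 fold change of 1.77 had an interval from -1.23 to 4.76. Without the 6 libraries with regional markers it was 0.96. GABRA2 in M6 vs. M4 had a log2 fold change of -0.52 (95% interval -1.61 to 0.57). GABRA4 and GABRA5 in M6 vs. D1 had log2 fold changes of -0.53 (95% interval -1.90 to 0.84) and -0.54 (95% interval -3.02 to 1.94). Without D1 replicate 4 both turned sign, to 0.086 and 0.22. Over all 42 values the half-width of the interval was between 0.693 for GABRG1 and 2.99 for GABRD, so a change of GABRD by several fold between stages could not have been told from the spread between goats. The stages accounted for 23.5% of the sum of squares of GABRB2 and for between 1.73% (GABRA5) and 11.3% (GABRB1) of that of the other 6 genes, against a median of 18.2% over all genes tested.

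**Figure D3:**
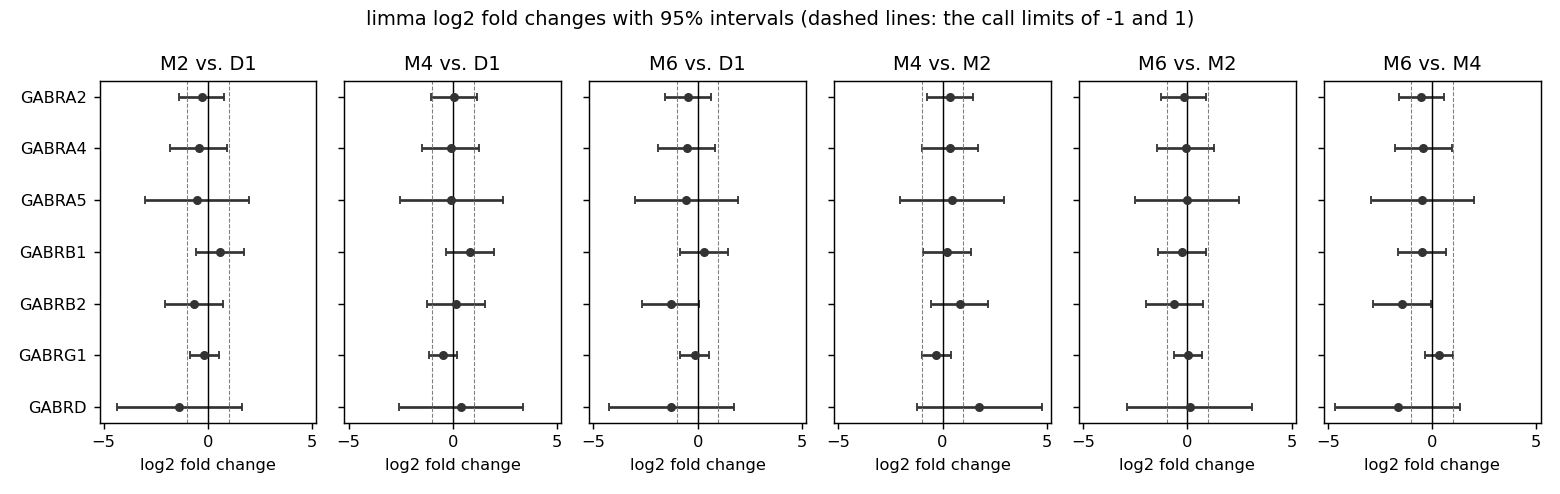
Log2 fold changes of the 7 subunit genes in the 6 comparisons between stages, from limma, with 95% intervals. Dashed lines mark the limits of -1 and 1, and of the 42 intervals that of GABRB2 in M6 vs. M4 (-2.82 to -0.07) leaves out 0.

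Subunit composition was then compared as the share of each gene in the summed FPKM of its class, which does not depend on the total receptor level of a library. The classes were the 6 alpha genes, the 3 beta genes, and the 7 genes of the position taken by gamma, delta, epsilon, pi or theta subunits. GABRA2 made up 26.4% ± 10.1 (SD, n = 20) of the alpha class, GABRA4 19.02% ± 8.34 and GABRA5 5.91% ± 5.45. GABRA2 was the highest alpha gene in 5 of 20 libraries and GABRA4 in 1, D1 replicate 4, where GABRA4 reached 43.1% of the class. GABRA2 led in M2 replicate 1 and 4, M4 replicate 2 and M6 replicate 3 and 4, and its highest share, 52.5%, was in M2 replicate 1. GABRA4 held a nearly constant part of the class at M4, between 14.0% and 17.7%, while its FPKM there ranged from 13.2 to 64.2.

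In the beta class GABRB1 made up 51.9% ± 17.4 (SD, n = 20) and GABRB2 30.1% ± 13.9. GABRB1 was the highest beta gene in 16 libraries and GABRB2 in 4, which were D1 replicate 1, D1 replicate 3, M2 replicate 3 and M4 replicate 1. The share of GABRB1 went from 17.9% in M4 replicate 1 to 90.2% in M2 replicate 1. The share of GABRB2 averaged 38.6% ± 5.42 in D1 (SD, n = 5), 28.3% ± 16.2 in M2, 30.9% ± 17.6 in M4 and 22.5% ± 12.2 in M6. The 5 libraries of M6, between 2.24% and 31.7%, all lay below the 5 of D1, between 33.9% and 45.0%. This was the smallest p of the 42 comparisons of shares (two-sided exact permutation p = 0.00794, adjusted p = 0.333). It is the smallest p that 5 against 5 libraries allow, and over 42 comparisons it could pass the adjustment only if at least 7 comparisons reached it, so that the adjusted test could not call a single share. Without the 6 libraries with regional markers the M6 values, between 2.24% and 31.1%, also lay below those of D1, between 33.9% and 45.0%, and the difference was -19.6 percentage points in place of -16.1. The lower share was then not particular to M6. The 3 M4 libraries left, between 14.2% and 26.4%, lay below the 4 of D1 too, with a difference of -17.9. Those of M2 (25.1% to 44.1%) overlapped with D1. The GABRB1 share moved the other way, from 42.5% ± 7.87 at D1 to 57.4% ± 17.2 at M6 (exact permutation p = 0.0794, adjusted p = 0.833). Without the libraries with regional markers the GABRB1 shares of M4 (60.4% to 68.9%) lay above those of D1 (34.9% to 54.9%), while those of M6 (42.3% to 86.2%) overlapped with D1.

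At the gamma and delta position GABRG1 made up 40.1% ± 13.2 (SD, n = 20) and GABRD 3.93% ± 6.5. GABRG1 was the highest gene of the class in 6 libraries, namely M2 replicates 1 and 3 and M6 replicates 2 to 5. The GABRG1 share was 35.98% ± 7.48 in D1, 42.9% ± 13.1 in M2, 31.7% ± 13.0 in M4 and 49.9% ± 14.0 in M6. The exact permutation p was 0.0635 for M6 vs. D1 and for M6 vs. M4 (adjusted p = 0.833 for each). The GABRD share had a median of 1.07% and reached 27.4% in D1 replicate 4, 12.02% in M6 replicate 2 and 8.60% in M2 replicate 4, the 3 libraries with striatum markers. GABRD and GABRG1 were at about equal levels in D1 replicate 4 (35.5 and 35.6 FPKM), while in M6 replicate 4 0.0603 FPKM of GABRD stood beside 87.0 FPKM of GABRG1, and in M2 replicate 1 GABRD was listed at 0 beside 33.8 FPKM.

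**Figure D4:**
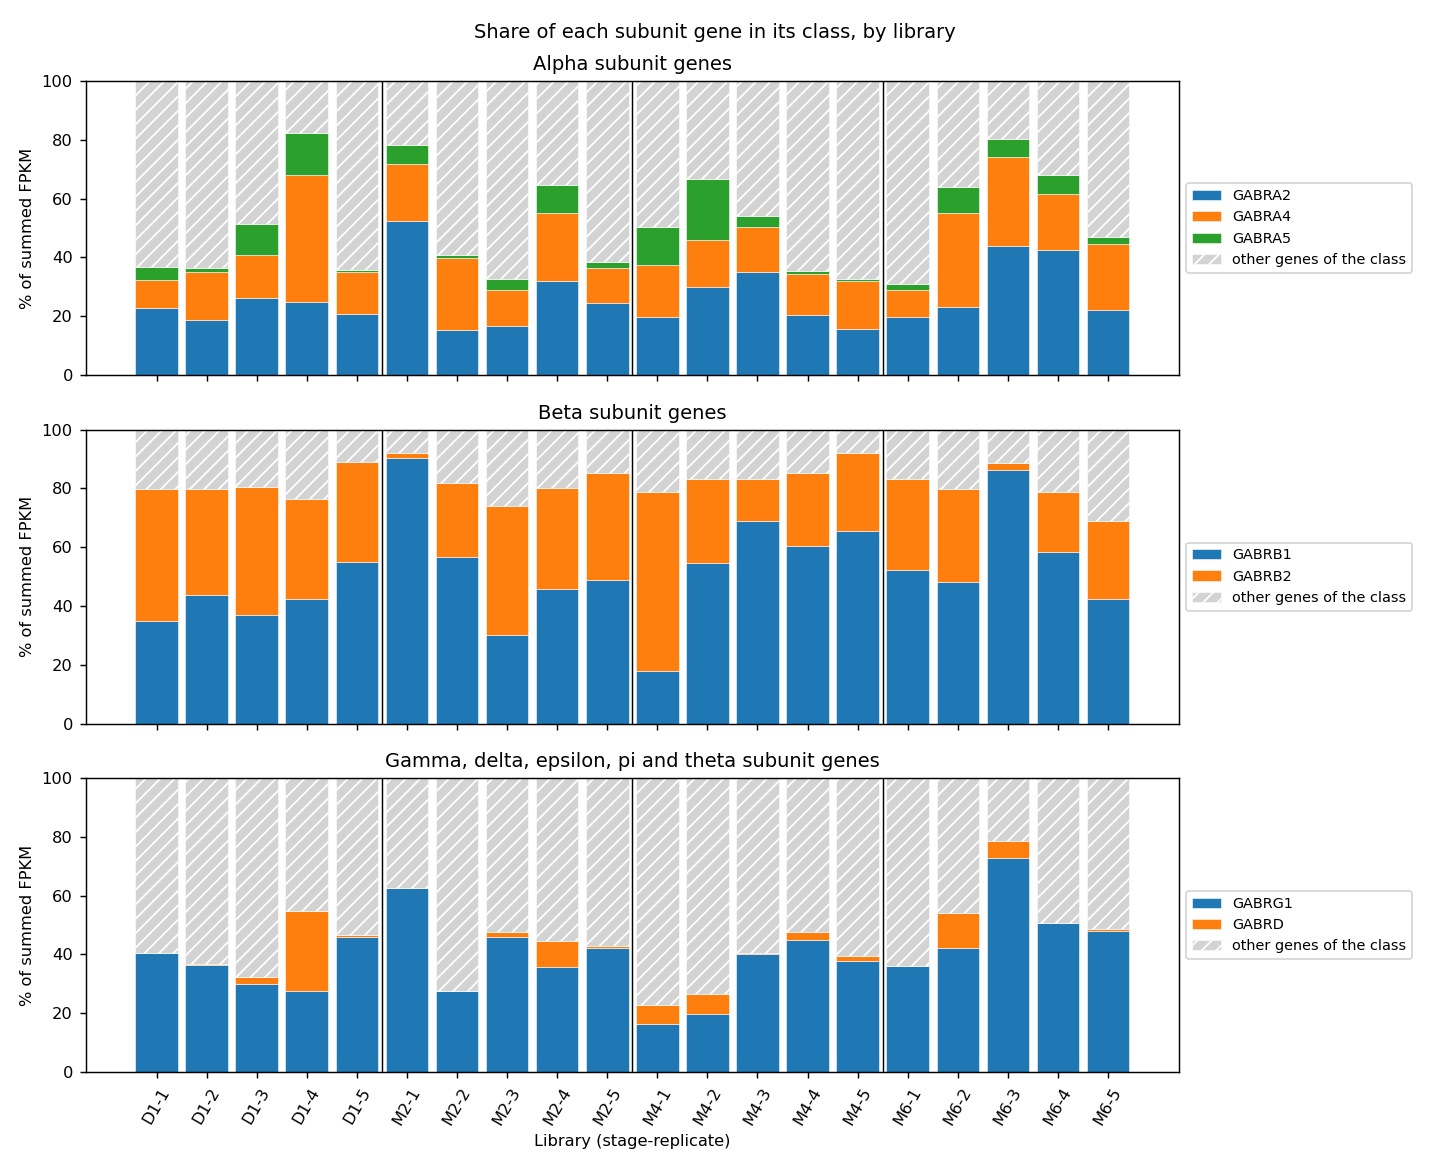
Share of each subunit gene in the summed FPKM of its class, in percent, for each of the 20 libraries, with members in plain colour and the sum of the other genes hatched in grey. Vertical lines part the stages. The share of GABRB1 spans 17.9% to 90.2% and that of GABRD 0% to 27.4%, mostly through differences between libraries of the same stage.

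In the ARS1.2 assembly 6 of the 7 genes lie in clusters with other subunit genes. GABRG1 (65127653 to 65214852), GABRA2 (65342451 to 65518411), GABRA4 (66072659 to 66151281) and GABRB1 (66193166 to 66631618) lie in this order on chromosome 6, within 1503966 bp. The only other protein-coding gene annotated among them, LOC102184512, had a mean of 0.884 FPKM. GABRB2 lies on chromosome 7 (37329946 to 37635493) near GABRA6, and GABRA5 on chromosome 21 (3436727 to 3532087) near GABRG3. GABRD stands apart on chromosome 16 (49207671 to 49218286), between PRKCZ and CFAP74.

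The members of the chromosome 6 cluster did not all vary together. As a description over the 20 libraries, Pearson's r of log2(FPKM + 0.1) was 0.80 for GABRA2 and GABRA4 on chromosome 6 (0.71 without D1 replicate 4 and M6 replicate 3, the libraries farthest from the median of GABRA2), but the other 5 pairs of that cluster had r values between 0.07 (GABRA4 and GABRB1) and 0.51 (GABRA2 and GABRG1). Over all 21 pairs of members r ran from -0.25 to 0.83, the latter for GABRA2 and GABRA5, with a median of 0.48. GABRD had an r of 0.71 with GABRA4 and 0.66 with GABRA5, and GABRA4 and GABRA5 one of 0.70. Without the 6 libraries with regional markers (n = 14) these 3 values were -0.15, -0.07 and 0.13, so they rest on those libraries. The r of GABRA2 was then 0.64 with GABRA4, 0.62 with GABRA5 and 0.85 with GABRG1, and the median over the 21 pairs was 0.25. GABRA4 and GABRG1 had an r of 0.56 in these libraries, against 0.25 over the 20. Within the chromosome 6 cluster the pairs with GABRB1 stayed low, between 0.19 and 0.32. The genes of a pair share the libraries, the dissections and the scaling to depth.

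**Figure D5:**
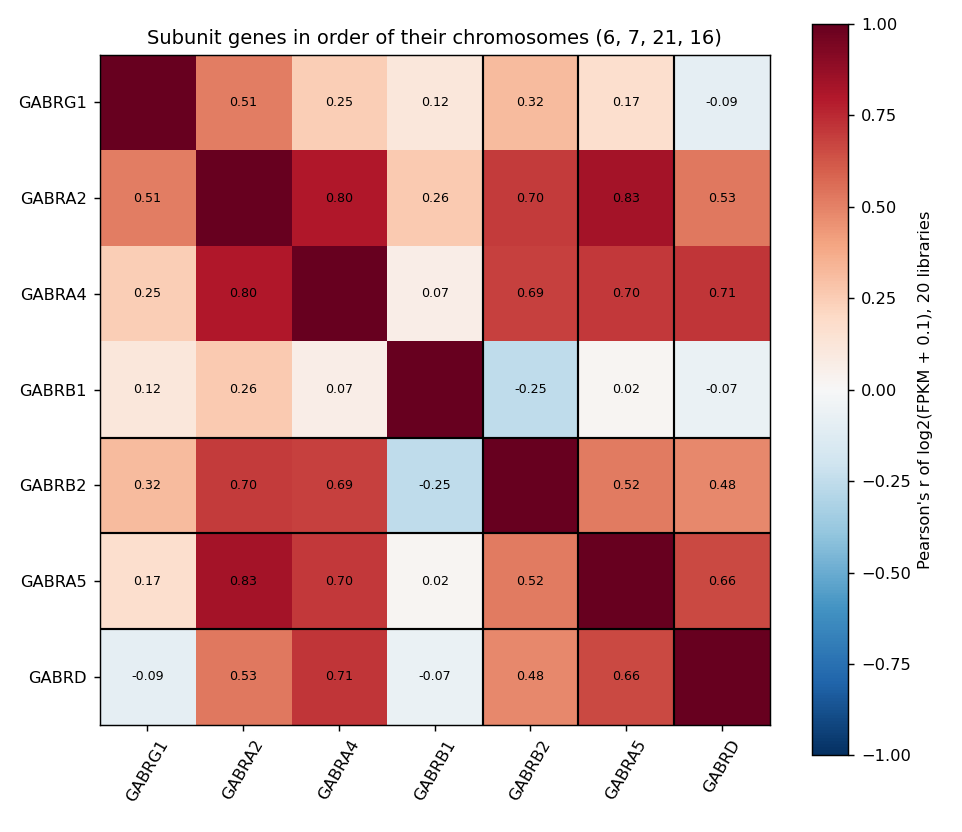
Pearson's r of log2(FPKM + 0.1) over the 20 libraries between the 7 subunit genes, ordered by chromosome (6, 7, 21 and 16), with black lines between chromosomes. GABRA2, GABRA4 and GABRA5 have r values from 0.70 to 0.83 with each other, while GABRB1 has values from -0.25 to 0.26 with the other 6 genes.

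The genes with the most similar pattern were looked up among 12366 named genes with a mean of at least 1 FPKM, by Pearson's r of log2(FPKM + 0.1) over the 20 libraries. For GABRB2 they were GLRB (0.95), the beta subunit gene of the glycine receptor, KRT222 (0.95) and GOT1 (0.94). GABRA5 was most like ZNF385B (0.92), CAMK2A (0.92), a kinase of excitatory synapses of the forebrain, and NEURL1B (0.91). For GABRA4 the genes were PLPPR4 (0.93), CAP2 (0.93) and FAM49A (0.92), and for GABRA2 XRCC5 (0.94), GALNT13 (0.94) and HOOK1 (0.93). GABRD was closest to LMO7 (0.87), OSBPL8 (0.85) and SLC39A3 (0.85). Without D1 replicate 4, where GABRD is highest, these 3 had r values of 0.83, 0.81 and 0.81. GABRG1 was most like KLHDC10 (0.87), PLA2G7 (0.85) and MUM1L1 (0.84). The closest genes of GABRB1, CCDC18 (0.86), DROSHA (0.83) and EAF2 (0.81), were also highest in M2 replicate 1, and without that library had r values of 0.77, 0.72 and 0.79. Without the 6 libraries with regional markers (n = 14) the genes named for GABRD had r values between 0.37 and 0.58, those for GABRA5 between 0.77 and 0.82, those for GABRA4 between 0.79 and 0.88 and those for GABRB1 between 0.69 and 0.85. For GABRA2, GABRB2 and GABRG1 the values then lay between 0.88 and 0.94.

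The rest of the receptor family and its partners gave the surroundings of these values. Of the 12 other subunit genes 9 passed the filter, and GABRA6, GABRP and GABRR3 did not. None of the 9 was called by limma in any comparison, at the background shares given above. The comparisons held between 0 and 2 genes each with an unadjusted p under 0.05 (0% to 22.2% of the 9, against 6.14% to 15.6% of all genes tested). All 22 partner genes, which encode scaffold, assembly, trafficking and auxiliary proteins of the receptor, passed the filter. GABARAPL2 and GABARAP, relatives of the receptor-associated trafficking protein family, had 245 ± 61.0 and 163 ± 35.8 FPKM (SD, n = 20), and NSF, a fusion factor that binds receptor subunits, 116 ± 56.5. None of the 22 was called by limma in any comparison, and between 1 and 7 genes a comparison had an unadjusted p under 0.05. The 7 were in M2 vs. D1 and made up 31.8% of the 22, against 15.6% of all genes tested (2616 of 16771). In the other comparisons the share was between 4.55% and 18.2%, against 6.14% to 8.71% of all genes tested. Whether these shares differ was not tested. In M2 vs. D1 the median log2 fold change was -0.45 for the 7 members, -0.57 for the 9 other subunit genes and -0.14 for the partners, against -0.07 for all genes tested. In M6 vs. D1 these medians were -0.53, -0.96, -0.24 and -0.05. The median of the 7 members did not keep this sign in all comparisons. It was 0.05 in M4 vs. D1 and 0.36 in M4 vs. M2. For M6 vs. M2 it was -0.08, and for M6 vs. M4 -0.51.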

How the data were processed

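The deposited values are FPKM per gene. The authors trimmed reads with fastp, aligned them with HISAT2 2.0.5 to the goat genome ARS1.2, and assembled transcripts and calculated levels with StringTie 1.3.3b (versions from the submitters' processing notes). Reads per gene are not in the table, so precision rests on the spread between goats. Per library the summed FPKM was 260199 to 377479. Symbols were found for 20610 of 21071 genes.

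The members, lists and tests were chosen with earlier results of these data known. Stages were read from the sample titles. Levels were compared with limma 3.58.1 in R 4.3.3 with a trend on mean expression, stages as groups and no block, using a pseudocount of 0.1 FPKM. Fold changes are on that scale, which understates changes of low genes. Shares of a class were compared with exact two-sided permutation tests over the 252 assignments of 5 against 5 libraries, adjusted over 42 values. The genes named are the members, their cluster neighbours, the 3 most similar genes of each, and the 3 highest genes of the other subunit and partner lists where none was called. Some of the genes this rule or the marker lists name are not reported here, but they stay in the sums and counts. The fit and the exact test were tested on simulated data. Mapping rates of the study's quality table served only as a covariate in an alternative. Subunit sequences were not used here. Python 3.11.15, pandas 2.3.3, numpy 2.4.6, scipy 1.17.1 and matplotlib 3.10.9 were used.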

Additional observations from a re-analysis of the deposited data

Results flagged for a closer look

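In 56 groups of 5 libraries (28 of FPKM and 28 of class shares of the 7 genes, by stage), a library was counted as standing far from the others where its gap to the nearest value was over 0.71 of the range, which chance alone gives in about 1 of 20 groups of normally distributed values. Whether this rate holds for FPKM values and shares was not tested. This was the case in 14 groups, 10 of them of FPKM. Of the 14, 9 were in D1 replicate 4, M2 replicate 4 or M6 replicate 2, the libraries with striatum markers. The groups are not independent, because the 7 genes were read in the same libraries and each share is calculated from the FPKM. GABRA4 and GABRD in D1 replicate 4 and GABRD in M2 replicate 4 were counted both by FPKM and by share. The 14 are therefore not separate events, and their number cannot be set against the rate of 1 in 20. D1 replicate 4 had 156.9 FPKM of GABRA4 (next value 20.8), 51.4 of GABRA5 (next 14.9) and 35.5 of GABRD (next 2.64). In the same library GABRA4 made up 43.1% of the alpha class (next 16.3%) and GABRD 27.4% of the gamma and delta position (next 2.49%). M2 replicate 4 had 23.9 FPKM of GABRA5 (next 3.93) and 13.4 of GABRD (next 0.739), the latter 8.60% of its class (next 1.5%). M6 replicate 2 had 10.1 FPKM of GABRD (next 1.73). M4 replicate 1, with cortex markers, had 182 FPKM of GABRB2 (next 69.2) and the lowest GABRB1 share of M4, 17.9% (next 54.6%). M2 replicate 1 had 447 FPKM of GABRB1 (next 99.8). GABRG1 was at 74.7 FPKM in D1 replicate 1 (next 35.9) and 87.0 in M6 replicate 4 (next 35.4).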

How the results depend on the processing

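Under all 36 alternatives 0 of the 7 members, 0 of the other subunit genes and 0 of the partner genes were called in each of the 6 comparisons, and the smallest adjusted p of a member by limma was 0.18. The alternatives changed the pseudocount, filter, scaling, variance trend, library weights, threshold, libraries in the fit and covariates. The mean of the neuron or of the myelin markers as a covariate, and leaving out the 6 libraries with regional markers (also for correlations), were chosen after seeing the data. Library quality weights gave up to 148 calls among the 16771 genes tested in a comparison. The myelin covariate gave up to 110, leaving out D1 replicate 4 up to 32 and leaving out the 6 libraries with regional markers up to 30. None of these was a member. With so few calls among all genes, their absence among the 7 members is not particular to the members. The adjusted test of the 42 shares could call none alone, so its counts of 0 under 23 alternatives say nothing about stability. Signs turned as follows, and the cause was not tested. With the neuron markers as a covariate the log2 fold change was 0.031 for GABRA2 in M6 vs. M4, 0.29 for GABRA4 and 0.69 for GABRA5 in M6 vs. D1. With the mapping rate it was 0.25 for GABRA4, and with the replicate block and the mapping rate 0.13 for GABRA4, 0.81 for GABRA5 and -0.26 for GABRB1 in M4 vs. D1. Leaving out single libraries gave -0.99 (without M6 replicate 2) to 0.086 (without D1 replicate 4) for GABRA4 and -1.26 (without D1 replicate 5) to 0.22 (without D1 replicate 4) for GABRA5. Goats with the same replicate number are different animals, and their deviations from the stage means had correlations between -0.25 and 0.43 with a median of -0.01 over 30 pairs. The replicate block left 0 members called and gave -1.45 for GABRB2 in M6 vs. M4. Reads per gene are not given, so no limit from counting was calculated.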
